A study of Mus musculus with 8 samples.

Results

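The immediate early response genes described here were 10 genes of the 37310 in the deposited table: the AP-1 genes Fos, Fosb, Jun, Junb and Jund, the transcription factor genes Egr1 and Atf3, Ier2 and Ier3, and the phosphatase gene Dusp1. They were chosen by name, with earlier results of these data known. They were measured by sequencing polyadenylated RNA of mouse 2-cell embryos grown from fertilized eggs in G1 culture medium. The 4 control libraries came from embryos kept in medium with the solvent DMSO, and the 4 treated libraries from embryos kept with 6 µM triclocarban (TCC), an antibacterial compound of soaps. No strain, genotype, age of the mothers, hour of collection or number of embryos per library is given in the labels, nor whether separate cultures stand behind the replicates. The p-values below therefore cover the spread seen among these libraries, which may be technical. The comparison of the groups bears on the series' stated question, whether triclocarban disturbs the passage from maternal to embryonic transcripts.

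Immediate early genes are transcribed within minutes of a signal, from factors already present in the cell and without new protein synthesis. Growth factors and stress reach them through MAP kinases, which act on factors bound at serum response elements and cyclic AMP response elements (CRE) of their promoters. Proteins of the FOS and JUN families pair through leucine zippers to form the transcription factor AP-1, while DUSP1 removes phosphate from MAP kinases and so limits the signal. Their mRNAs are typically short-lived, a property often tied to AU-rich elements in the 3' untranslated region. The mouse 2-cell stage is when the embryo's own genome becomes widely active and stored oocyte mRNA is cleared.

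The promoter windows of Dusp1 and Ier3 are shown because these genes changed in opposite directions. Each holds the 250 bases before the RefSeq transcription start (GRCm38.p6), at chr17:26508473-26508722 on the minus strand for Dusp1 and chr17:35821463-35821712 on the plus strand for Ier3. Capitals mark matches to the CRE (TGACGTCA) or its core (TGACG) and to the CCAAT box (CCAAT), on either strand.
Dusp1: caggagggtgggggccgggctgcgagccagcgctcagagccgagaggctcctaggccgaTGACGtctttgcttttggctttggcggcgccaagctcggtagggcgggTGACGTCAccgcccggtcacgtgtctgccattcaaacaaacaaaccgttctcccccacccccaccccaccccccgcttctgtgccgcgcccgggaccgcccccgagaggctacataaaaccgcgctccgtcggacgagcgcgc
Ier3: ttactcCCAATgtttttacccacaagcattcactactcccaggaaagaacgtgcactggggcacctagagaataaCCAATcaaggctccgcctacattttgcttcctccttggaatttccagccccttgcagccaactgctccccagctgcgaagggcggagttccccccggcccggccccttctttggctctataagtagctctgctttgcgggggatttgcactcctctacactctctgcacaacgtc
The Dusp1 window had a full CRE that began 143 bases before the start, and a further CRE core that began 191 bases before it. The core is part of the full element, so each full match is also a core match. The Ier3 window had neither, and had CCAAT boxes that began 244 and 175 bases before the start. Of all 32851 promoter windows of this length in the table, 1.55% held a full CRE, 17.8% a core and 33.8% a CCAAT box. Windows of 8 of the 10 genes were used, and none of Egr1 and Ier2. The core was found in 5 of the 8, those of Fos, Fosb, Junb, Atf3 and Dusp1, and the full CRE in that of Dusp1. The AP-1 motif TGANTCA, held by 6.75% of all windows, and the CArG box of serum response elements, held by 1.47%, matched in 0 of the 8. Sites more than 250 bases before the start were not searched, so this does not show that the genes lack such elements. The motif TATAAA matched in that of Fos, and the EGR site GCGNGGGCG in that of Fosb, against 12.4% and 4.70% of all windows. GC boxes (GGGCGG, 32.7% of all windows) matched in 6 of the 8. The part of any of these motifs in the changes was not tested. The RefSeq start behind a window lay far from the start of the GENCODE M21 gene for 3 of the 8 genes, by 1210 bases for Jund, 34706 for Atf3 and 53656 for Dusp1, and at most 30 bases from it for the other 5.

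The libraries held 11788 to 13541 genes at 1 FPKM or more (fragments counted per kilobase of transcript and relative to the library's mapped fragments), with 12828 to 13541 in the controls and 11788 to 11957 in the treated libraries. FPKM compares levels between genes of different length, but it is a share of each library, so amounts per embryo were not measured. A lower level in every cell and a loss of transcripts from some of the cells cannot be told apart. The controls did not form a single group: on the first principal component, controls 1 and 2 scored 27.8 and 36.5, controls 3 and 4 scored 101.7 and 97.8, and the treated libraries lay between -69.6 and -62.65. Triclocarban library 2 stood apart on the second component at 63.3, where the others lay between -38.4 and 19.3. All 6 of the 2-cell markers in the table passed the filter. Of these Zfp352 fell by 1.14, Usp17le rose by 1.74, Zscan4f by 1.35 and Zscan4c by 1.27 on the log2(FPKM + 1) scale (limma adjusted p = 0.0180, 0.000320, 0.0236 and 0.0297), and Zscan4d and Usp17lc did not pass. Of 12 markers of cumulus and granulosa cells, which surround the egg, 7 were below 1 FPKM in every library. Lhcgr was at 0 throughout, and Foxl2 was at most 0.135. The summed level of the 12 was 24.2 to 32.8 FPKM in controls and 10.6 to 19.6 with triclocarban, so it moved with the groups, and its part in the results was not tested. Within it, Amhr2 fell by 3.40 and Tnfaip6 by 1.63 on the log2(FPKM + 1) scale, while Cyp19a1 rose by 1.55 and Fshr by 1.16 (limma adjusted p = 5.54e-05, 0.000668, 0.00323 and 0.0282). Tnfaip6 passed the filter through its control libraries alone.

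Of the 10 genes, Ier2 and Ier3 fell and Dusp1 rose with triclocarban, while Egr1 and Atf3 did not pass the test. The AP-1 genes Fos, Fosb, Jun, Junb and Jund were near or below 1 FPKM in every library, with a highest value of 1.72. The test was limma on log2(FPKM + 1), with p-values adjusted by Benjamini-Hochberg over 12941 genes, those that reached 1 FPKM in 4 or more libraries, and a threshold of 0.05. The 5 genes that passed this filter were Ier2, Ier3, Egr1, Atf3 and Dusp1, none of them through the libraries of a single group. Atf3 was just inside the filter, with 4 libraries at 1 FPKM or more, and Fos and Jund just outside, with 3 each. Of all tested genes, 11.3% rose and 30.8% fell, 42.1% together, so 1 higher and 2 lower among 5 is read against these shares. Higher genes made up 26.9% of all calls. Scaling by median of ratios raised this to 45.3% (20.4% of genes higher, 24.6% lower), and quantile normalization to 50.6%. The median change of all tested genes was -0.19, and 0.06 and 0.14 under these scalings. Ier2, Ier3 and Dusp1 kept their direction and passed the threshold under each of the 4 scalings tried.

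**Figure D1:**
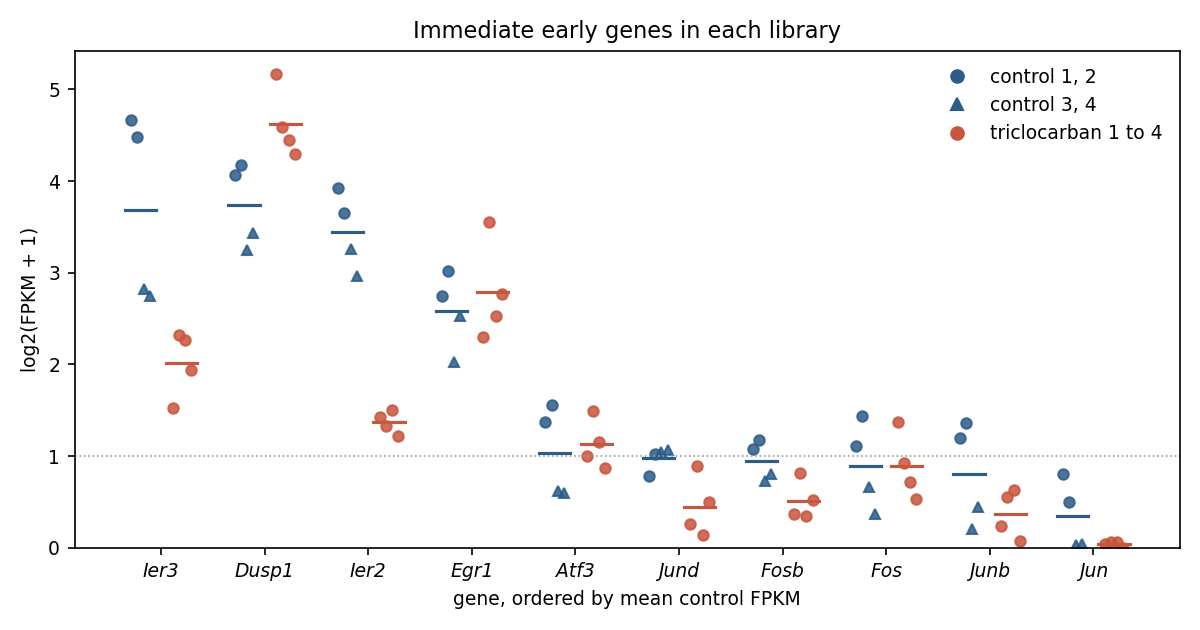
Level of each of the 10 immediate early genes in each library as log2(FPKM + 1), ordered by mean control FPKM, with a point per library and a bar at the mean of the plotted values (4 libraries each). The dotted line marks 1 FPKM. Treated libraries lie below all controls for Ier2 and Ier3 and above all controls for Dusp1, and controls 1 and 2 (circles) lie above controls 3 and 4 (triangles) for 9 of the 10 genes.

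Ier2 encodes a small nuclear protein with a part in transcription, and lies on chromosome 8 at 84661331 to 84662852 on the minus strand (ENSMUSG00000053560.4, GENCODE M21, GRCm38). Its FPKM was 14.2, 11.5, 8.54 and 6.82 in the controls in order, against 1.68, 1.51, 1.83 and 1.33 in the treated libraries. Every treated library was far below every control, and the treated libraries lay close together. The level averaged 10.3 ± 3.26 FPKM in control embryos and 1.59 ± 0.22 in treated embryos (SD, n = 4 each), a level 6.48-fold lower. On the log2(FPKM + 1) scale Ier2 fell by 2.08 (standard error 0.27, limma adjusted p = 0.000171). Under all 22 alternatives run, Ier2 was called lower, with changes from -2.58 to -1.19. The smallest change came with a pseudocount of 5, which compresses low levels.

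Ier3, also known as IEX-1, encodes a short-lived regulator of cell survival and ERK signalling, and lies on chromosome 17 at 35821684 to 35822923 on the plus strand (ENSMUSG00000003541.6). Its FPKM was 24.4, 21.3, 6.09 and 5.73 in the controls in order. The treated libraries had 1.88, 4.01, 3.82 and 2.83. The groups did not overlap, but controls 3 and 4 lay nearer to the treated libraries than to controls 1 and 2. The level averaged 14.4 ± 9.85 FPKM in control embryos and 3.13 ± 0.99 in treated embryos (SD, n = 4 each), a level 4.59-fold lower. On the log2(FPKM + 1) scale Ier3 fell by 1.67 (standard error 0.45, limma adjusted p = 0.0118). Without controls 1 and 2 the change was -0.77 and missed the threshold (adjusted p = 0.0525), where 32.6% of all genes were called lower. Leaving out controls 3 and 4 instead gave -2.56 (adjusted p = 0.000867), with 25.1% of all genes lower. The size of the fall of Ier3 thus depended on the pair of controls.

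Dusp1 encodes the phosphatase MKP-1, which acts on p38, JNK and ERK kinases (ENSMUSG00000024190.6, chromosome 17, 26505590 to 26562128, minus strand). Its FPKM was 15.8, 17.1, 8.51 and 9.84 in the controls in order, against 34.8, 23.0, 20.9 and 18.6 in the treated libraries. All 4 treated libraries were above all 4 controls, the lowest of them close to the highest control. The level averaged 12.8 ± 4.28 FPKM in control embryos and 24.3 ± 7.23 in treated embryos (SD, n = 4 each), 1.90-fold higher. On the log2(FPKM + 1) scale Dusp1 rose by 0.89 (standard error 0.30, limma adjusted p = 0.0350). The call was not kept without control 3 (adjusted p = 0.104), control 4 (adjusted p = 0.0944), treated library 1 (adjusted p = 0.108) or treated library 3 (adjusted p = 0.0594). It was also lost with no filter on low genes (adjusted p = 0.0617), and over all alternatives the adjusted p ran from 0.00572 to 0.249. Leaving out controls 3 and 4 gave a change of 0.50 (adjusted p = 0.249), with 5.37% of all genes called higher. Leaving out controls 1 and 2 gave 1.28 (adjusted p = 0.00690), with 21.9% called higher. In GENCODE M21 the Dusp1 locus shares exon bases with Ergic1 on the opposite strand, and the strand setting of the counting is not given. Ergic1 had 6.81, 5.52, 3.05 and 2.69 FPKM in the controls in order, against 7.11, 2.16, 4.63 and 3.67 in the treated libraries, so its groups overlapped.

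Of the 5 tested genes, Ier2 and Ier3 lay lower in all 4 treated libraries than in all 4 controls, and Dusp1 lay higher. The same held for 30.0% and 10.2% of all genes tested. With 5 genes, counts of 2 and 1 are near these shares, and nothing particular to the immediate early genes is read from them.

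**Figure D2:**
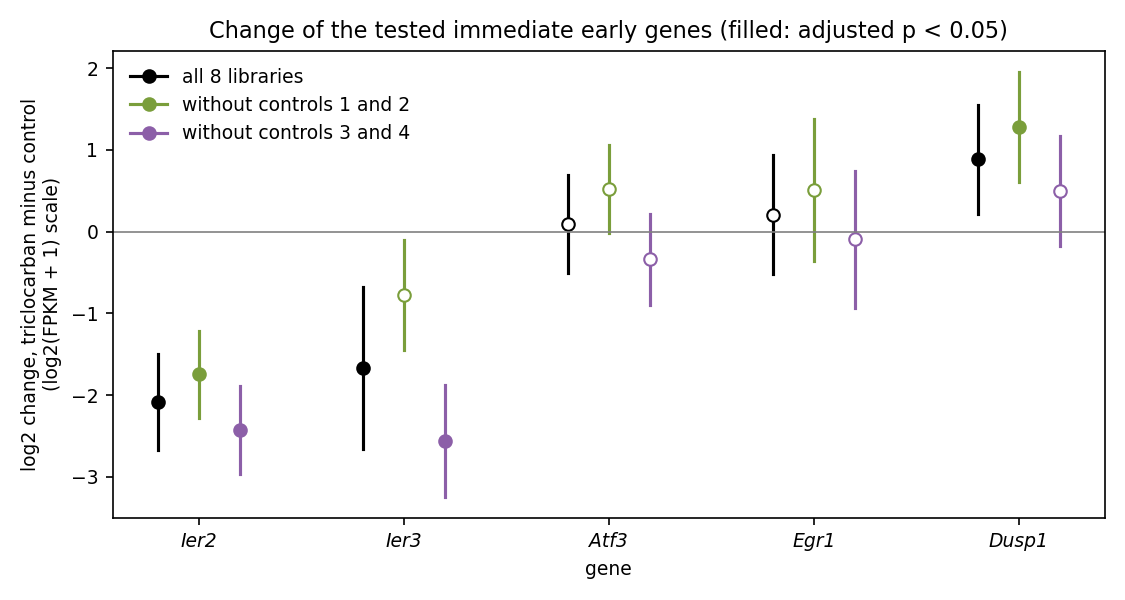
Change of the 5 tested genes on the log2(FPKM + 1) scale (triclocarban minus control, limma), with 95% confidence intervals, over all 8 libraries and without either pair of controls. Filled points passed an adjusted p of 0.05. Ier2 is filled in all 3 settings, from -2.42 to -1.74, Ier3 goes from -2.56 without controls 3 and 4 to -0.77 without controls 1 and 2, and Dusp1 is filled in 2 of the 3 settings.

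Egr1 encodes a zinc finger transcription factor that is a classic target of ERK signalling, and lies on chromosome 18 at 34859823 to 34864984 on the plus strand (ENSMUSG00000038418.6). Its FPKM was 5.69, 7.13, 3.09 and 4.76 in the controls in order, against 3.93, 10.8, 4.77 and 5.83 in the treated libraries. The groups overlapped, and the highest value was that of treated library 2, the library that stood apart from the rest. The log2 change was 0.21 with a 95% interval of -0.52 to 0.94 (limma adjusted p = 0.644), and -0.05 without treated library 2 (adjusted p = 0.905). The interval spans changes in both directions, so this does not show that Egr1 was equal in the groups.

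Atf3 encodes a stress-induced bZIP factor that can pair with JUN proteins (ENSMUSG00000026628.8, chromosome 1, 191170296 to 191218039, minus strand). Its FPKM was 1.59, 1.95, 0.535 and 0.510 in the controls in order, against 0.998, 1.82, 1.23 and 0.826 in the treated libraries. Treated libraries 1, 3 and 4 lay between the pairs of controls, and treated library 2 lay within the upper pair. The log2 change was 0.09 with a 95% interval of -0.51 to 0.69 (limma adjusted p = 0.815). Dropping controls 1 and 2 gave 0.52 and dropping controls 3 and 4 gave -0.34, neither past the threshold (adjusted p = 0.0916 and 0.345).

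The JUN genes, whose proteins can form AP-1 with each other or with FOS proteins, were all below the filter. Jun (ENSMUSG00000052684.3) lies on chromosome 4 at 95049034 to 95052222 on the minus strand. Junb (ENSMUSG00000052837.4) lies on chromosome 8 at 84974484 to 84978718 on the minus strand, and Jund (ENSMUSG00000071076.4) on the same chromosome at 70698949 to 70700616 on the plus strand. Jun was at 0.743, 0.413, 0.0238 and 0.0278 FPKM in the controls in order, against 0.0301, 0.0418, 0.0430 and 0 in the treated libraries. Only controls 1 and 2 held Jun above 0.1 FPKM, and the other 2 controls were at the level of the treated libraries. Junb was at 1.29, 1.57, 0.153 and 0.363 FPKM in the controls in order, against 0.179, 0.471, 0.546 and 0.0523 in the treated libraries. It showed the same split of the controls. Jund was at 0.726, 1.04, 1.06 and 1.09 FPKM in controls and at 0.195, 0.854, 0.105 and 0.414 with triclocarban, so controls 3 and 4 were not low here. In the fit with no filter, where 4.05% of 28046 genes were higher and 15.7% lower, the change of Jund was -0.53 (limma adjusted p = 0.0868), that of Jun -0.30 (adjusted p = 0.249) and that of Junb -0.43 (adjusted p = 0.346). In GENCODE M21, Jun shares exon bases with the antisense gene Junos, and Junb with Prdx2, a peroxiredoxin gene on the opposite strand. Junos was at 0 to 0.751 FPKM and Prdx2 at 371 to 739 FPKM across the libraries. Without a known strand setting, fragments of these pairs cannot be told apart.

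The FOS genes, whose proteins bind DNA as partners of JUN proteins, did not pass the filter either. Fos (ENSMUSG00000021250.7) lies on chromosome 12 at 85473890 to 85477273 on the plus strand, and Fosb (ENSMUSG00000003545.2) on chromosome 7 at 19302696 to 19310051 on the minus strand. Fos was at 1.15, 1.72, 0.582 and 0.287 FPKM in the controls in order, against 1.58, 0.905, 0.650 and 0.450 in the treated libraries. Its group means were 0.93 ± 0.63 and 0.90 ± 0.49 FPKM (SD, n = 4 each), and the groups overlapped. Fosb was at 1.11, 1.25, 0.652 and 0.752 FPKM in controls and at 0.294, 0.766, 0.271 and 0.436 with triclocarban. Treated library 2 lay among the controls and the other 3 below them. With no filter the change of Fosb was -0.43 (limma adjusted p = 0.130) and that of Fos was 0.00 (adjusted p = 0.994). None of the 5 AP-1 genes passed the test with no filter, which does not show that they were equal: Jund had an unadjusted p of 0.0214 and Fosb of 0.0380 (limma). Their changes depended on the pseudocount. With 0.1 in place of 1, the change was -0.99 for Fosb, -1.36 for Jund, -1.17 for Jun and -1.03 for Junb, and with 5 it was -0.13 for Fosb, -0.15 for Jund, -0.07 for Jun and -0.13 for Junb. Jun and Junb depended on the controls too: leaving out controls 1 and 2 gave 0.00 and 0.05, leaving out controls 3 and 4 gave -0.61 and -0.90, leaving out control 1 alone gave -0.15 for Jun, and leaving out control 2 alone gave -0.24 for Junb.

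In order of level, the controls had Ier3 at 14.4 FPKM, Dusp1 at 12.8 and Ier2 at 10.3, which did not differ beyond their spread. Egr1 followed at 5.17, a range that overlapped that of Ier2 and Ier3, and the other 6 genes were at 1.15 or below. With triclocarban the order was Dusp1 at 24.3, Egr1 at 6.33, Ier3 at 3.13, Ier2 at 1.59 and Atf3 at 1.22 FPKM. The lowest Dusp1 value there, 18.6, was above the highest of Egr1, 10.8. Ier3 and Egr1 overlapped, as did Ier2 and Atf3. The sum over the 10 genes was 29.2 to 66.7 FPKM in controls and 30.7 to 45.6 in treated libraries, so the groups overlapped in it.

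Controls 1 and 2 were both above controls 3 and 4 for 9 of the 10 genes, Jund being the exception. Of all genes above 0 in any library 30.8% showed this pattern, and of the genes tested 43.3%, against all 5 of the tested immediate early genes. The mean of controls 1 and 2 was 1.63 times that of controls 3 and 4 for Egr1, 1.68 times for Ier2, 1.79 times for Dusp1, 3.87 times for Ier3 and 5.53 times for Junb. All 6 oocyte-derived markers followed the same order in the controls, Bmp15 with 868, 737, 256 and 260 FPKM among them. In the treated libraries Bmp15, Btg4 and Ooep were above all controls, while Gdf9, Zp2 and Mos overlapped with them and did not pass the test (limma adjusted p = 0.0919, 0.263 and 0.622). The summed level of the 6 was 1311 to 4167 FPKM in controls and 4712 to 7514 with triclocarban. The part of oocyte-derived RNA in the levels of the immediate early genes was not tested.

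The genes whose pattern was most like that of each tested member were found by Pearson correlation of log2(FPKM + 1) over the 8 libraries, among 10283 named coding genes. The points share the libraries and the group difference, so the values are a description. For Ier2 these were Abhd14b (r = 0.996) and Spsb4 (r = 0.995). Abhd14b was at 5.05 to 14.3 FPKM in the controls and at most 0.545 in the treated libraries. For Ier3 they were Fahd1 (r = 0.983) and Rusc1 (r = 0.972). For Dusp1 they were Acsl3, a fatty acid activating enzyme (r = 0.990), and Mlx, a bHLH transcription factor (r = 0.981). For Egr1 they were the chromatin genes Kmt2b (r = 0.983) and Chd4 (r = 0.983), both highest in treated library 2, as Egr1 was. For Atf3 they were Adprh (r = 0.987) and Slx4ip (r = 0.972).

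The 10 genes had few exons. All 10 had at most 4 exons in their transcript with the longest coding sequence (GENCODE M21), against 21.25% of the 10712 coding genes tested, whose median was 9. Jun, Junb, Jund and Ier2 had 1 exon, as did 2.71% of the tested coding genes. Against a median of 2778 bases for the tested coding genes, the transcripts of the 10 ran from 1131 for Ier3 to 4484 for Egr1. The pentamer ATTTA of AU-rich elements was unevenly spread over their 3' untranslated regions. Ier3 had 5 copies, or 8.16 per kilobase, Dusp1 had 5.80 per kilobase and Fos 4.91, against a median of 1.44 for the tested coding genes. Ier2 had 0 copies in 755 bases. The 2 genes that fell included the member with most of these pentamers per kilobase and the member with none. Dusp1, which rose, came next after Ier3. The part of these pentamers in the changes was not tested.

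Other immediate early genes, a list of 47 chosen beside the 10 with earlier results of these data known, showed lower levels in many members. Of the 31 tested, 18 were lower and 0 were higher with triclocarban (limma, adjusted p under 0.05), with a median log2 change of -1.04. That is 58.1% lower, where all genes tested gave 30.8%, and 1 of the 31, Myc, passed the filter through controls alone. Btg1, an antiproliferative gene, averaged 14.4 ± 2.85 FPKM in control embryos and 2.04 ± 0.75 in treated embryos (SD, n = 4 each), and changed by -2.35 on the log2(FPKM + 1) scale. The polo-like kinase gene Plk3 averaged 16.1 ± 6.11 FPKM in control embryos and 2.02 ± 0.41 in treated embryos, a change of -2.45. The kinase gene Pim1, an effector of cytokine signalling, averaged 10.7 ± 3.80 FPKM in control embryos and 1.42 ± 0.76 in treated embryos, a change of -2.28. The adjusted p-values of these 3 were 9.54e-05, 0.000108 and 0.000205 (limma). Chosen after their values were seen, the survival gene Mcl1 changed by -2.54, the stress gene Gadd45b by -2.34, Klf4 by -2.39, Myc by -1.64 and Ier5 by -1.28, each past the threshold. No member rose with the FPKM as deposited, but 1 did with median-of-ratios scaling, 3 with quantile normalization and 3 when controls 1 and 2 were left out. All genes gave 20.4%, 22.5% and 21.9% higher in these settings, more than 3 of 31. Of the 47 genes, Egr3 and Npas4 were at 0 in every library.

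**Figure D3:**
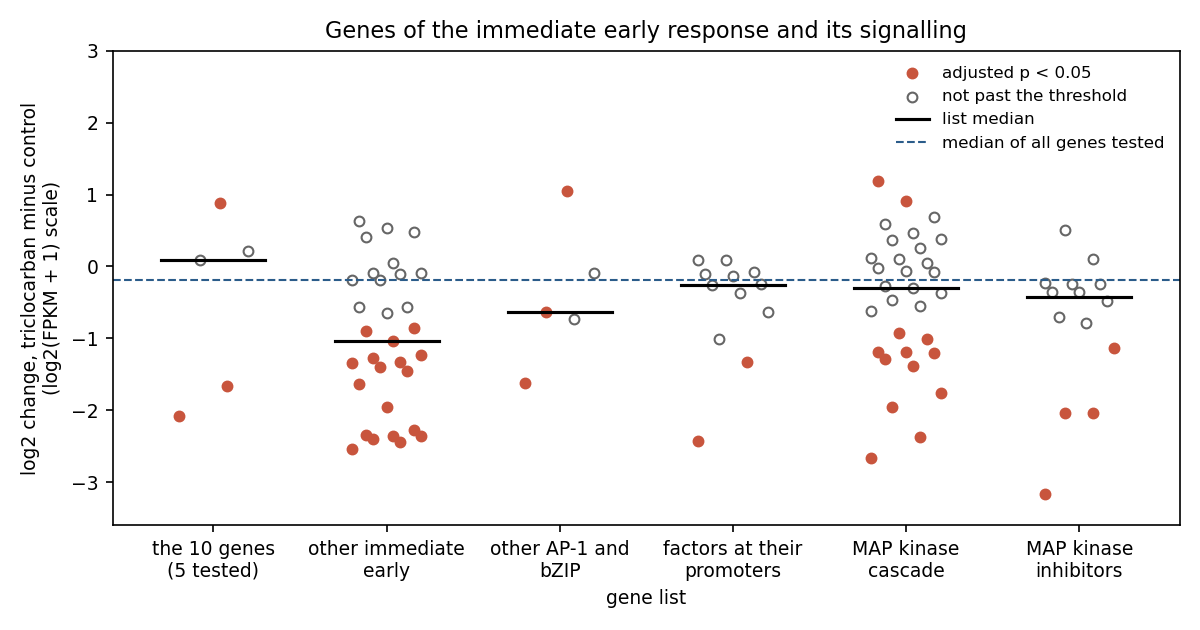
Log2 change (triclocarban minus control, log2(FPKM + 1) scale) of every tested gene in the 10 immediate early genes and 5 related lists, with filled points past an adjusted p of 0.05. Bars give each list's median and the dashed line the median of all genes tested, -0.19. The other immediate early genes have the lowest median, -1.04, with 18 of 31 filled and all of these below 0.

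Further AP-1 and related bZIP genes were largely at low levels too: 5 of 14 in the table passed the filter, 1 was higher, 2 were lower and their median change was -0.64. With 5 genes these counts are near the 11.3% and 30.8% of all genes. Batf3, whose protein pairs with JUN proteins in immune cells, averaged 3.16 ± 0.81 FPKM in control embryos and 7.75 ± 2.22 in treated embryos (SD, n = 4 each; log2 change 1.05, limma adjusted p = 0.0110). Mafk, a small MAF partner of NRF2, averaged 5.39 ± 1.74 FPKM in control embryos and 1.04 ± 0.38 in treated embryos (log2 change -1.62, adjusted p = 0.000768). Atf4, the effector of the integrated stress response, averaged 130.6 ± 4.86 FPKM in control embryos and 84.8 ± 18.0 in treated embryos (log2 change -0.64, adjusted p = 0.0474). Atf4 lost its call in 15 of 22 alternatives, with adjusted p-values up to 0.292, and Batf3 in 1 of 21 (without controls 3 and 4, adjusted p = 0.0745). Fosl1 and Fosl2, the other FOS family genes, did not pass the filter.

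Of the factors that act at immediate early promoters, 12 of 14 were tested, 2 were lower, 0 higher and the median change was -0.26. Crem, a CRE-binding factor gene, averaged 17.7 ± 6.82 FPKM in control embryos and 2.33 ± 0.56 in treated embryos (SD, n = 4 each; log2 change -2.42, limma adjusted p = 0.000185). Creb1, which encodes the CRE-binding protein CREB, averaged 3.94 ± 2.30 FPKM in control embryos and 0.86 ± 0.50 in treated embryos (log2 change -1.32, adjusted p = 0.00927). Creb1 was at 2.04 and 1.94 FPKM in controls 1 and 2 and at 6.44 and 5.36 in controls 3 and 4, the reverse of the order seen for the immediate early genes. It lost its call in 2 of 21 alternatives, quantile normalization and without controls 3 and 4, with adjusted p-values up to 0.0724. Srf, which encodes the serum response factor and was named after its value was seen, had a log2 change of -0.63 and did not pass (adjusted p = 0.0976). The share of lower genes in this list, 16.7%, was below the 30.8% of all genes.

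MAP kinase cascade genes had 2 of 31 tested members higher and 11 lower, 6.45% and 35.5%, against 11.3% and 30.8% of all genes, with a median of -0.30. Of the kinases that DUSP1 acts on, the p38 genes Mapk14 and Mapk13 fell. Mapk14, the gene of p38 alpha, averaged 19.4 ± 2.86 FPKM in control embryos and 4.31 ± 1.05 in treated embryos (SD, n = 4 each; log2 change -1.95, limma adjusted p = 0.000174). Mapk13, another p38 gene, changed by -2.37 and Map3k3, an upstream kinase gene, by -2.66. Map3k3, counted among the 11, passed the filter through controls alone. Named after its value was seen, the JNK gene Mapk8 had a log2 change of 0.60 and was not called (adjusted p = 0.108). The 2 higher genes were Map2k1, which encodes the ERK-activating kinase MEK1, from 98.4 ± 40.3 to 213.7 ± 44.6 FPKM, and Rps6ka3, which encodes a kinase downstream of ERK, from 6.65 ± 2.36 to 13.5 ± 4.75 FPKM. Map2k1 was called at an adjusted p of 0.0118 and Rps6ka3 at 0.0426 (limma). Leaving out controls 3 and 4 left 0 genes of the list higher, where 5.37% of all genes were higher. Leaving out controls 1 and 2 gave 5 of the 31, where 21.9% of all genes were higher. Rps6ka3 lost its call in 8 of 22 alternatives, with adjusted p-values up to 0.280, and Map2k1 in 1 (adjusted p = 0.0848).

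Among other inhibitors of MAP kinase signalling, 4 of 14 tested genes were lower and 0 higher, with a median of -0.42. This 28.6% is near the 30.8% of all genes. Spry2, an inhibitor of receptor tyrosine kinase signalling, averaged 58.0 ± 20.3 FPKM in control embryos and 5.49 ± 1.94 in treated embryos (SD, n = 4 each; log2 change -3.17, limma adjusted p = 5.86e-05). The phosphatase gene Dusp5 changed by -2.04 and Dusp10 by -1.14 (adjusted p = 0.000527 and 0.00708). The fourth was Dusp6, named after its value was seen, at -2.04 (adjusted p = 0.0134). Without controls 1 and 2, 2 members of the list were higher, where 21.9% of all genes were higher. The 7 tested DUSP genes of this list were not called higher with all 8 libraries, where Dusp1 was. Of all genes tested 11.3% were higher, so 0 of 7 is near that share and nothing particular to Dusp1 is read from it. The differences between these 7 genes and Dusp1 were not tested.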

How the data were processed

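RNA of 4 control and 4 treated libraries was sequenced. The authors deposited FPKM for 37310 genes. Per the submitters' processing notes, the genome build was mm10, and DESeq2 1.30.1, featureCounts, StringTie and STAR were used. The notes as used here assign no step to a tool. Which counter, annotation release and strand setting lie behind the FPKM is not given in the sources used here. Columns were assigned by name. The labels' protocols mention 2 library preparations without saying which was used.

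Depth is unknown. FPKM was multiplied by exon length and divided by the most frequent low value, and 13.4 to 15.1% of low values lay within 0.05 of a whole number, where 10% is expected by chance, so counts could not be recovered and count models were not used. Of the identifiers, 32620 were found in GENCODE M21 (GRCm38, which is mm10), all 10 genes among them. Promoters came from RefSeq (GRCm38.p6).

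The 12941 genes that reached 1 FPKM in 4 or more libraries were tested with limma 3.58.1 in R 4.3.3 (lmFit, eBayes with trend) on log2(FPKM + 1), with treatment as the only term and Benjamini-Hochberg adjustment over all genes tested. The fit was tested on simulated data with independent libraries, few changed genes and no split of the controls. That does not show how it performs on these data. Other pseudocounts, filters, scalings, variance models, a replicate block and leaving out libraries were the alternatives. Named genes were the 10 members, up to 3 per direction with the smallest adjusted p in each related list, and the 2 most correlated genes per tested member. The members, lists and settings were chosen with earlier results of these data known. Tables were made with Python 3.11.15 and pandas 2.3.3.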

Additional observations from a re-analysis of the deposited data

Results flagged for a closer look

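Of 20 groups of 4 libraries (10 genes in each of the control and treated groups), 1 held a library set apart from the rest by its gap. This was Jund, whose lowest control, library 1, was at 0.726 FPKM where the other controls lay from 1.04 to 1.09. The gap took 0.85 of the group's range, above Dixon's 95% critical value for 4 samples. Chance alone gives such a gap in about 1 of 20 groups, the number examined here. No explanation was tested.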

How the results depend on the processing

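Ier2 was called lower under all 22 alternatives, Ier3 under 21 of 22 and Dusp1 higher under 16 of 22. Egr1 and Atf3 were called under none of theirs, and their small changes turned sign. Egr1 was at -0.0291 with array weights (whose fit stopped before its tolerance), -0.09285 without controls 3 and 4, and -0.04659 to 0.3723 with single libraries left out, the lowest without treated library 2. Atf3 was at -0.06322 with array weights, -0.3383 without controls 3 and 4, and -0.05533 to 0.2666 with single libraries left out. It was below 0 without control 3 (-0.04752), control 4 (-0.05533) or treated library 2 (-0.02986), and had no value under the stricter filter. The number of immediate early genes called higher was 0 with no filter on low values and 0 without controls 3 and 4. Of all genes, 4.05% and 5.37% were higher in these settings. It was 0 to 1 for the immediate early genes when each library was left out in turn. The number lower was 1 without controls 1 and 2, where 32.6% of all genes were lower. The causes were not tested.

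Of the related lists, the AP-1 and bZIP genes had 0 higher with the stricter filter (at least 5 FPKM in 4 libraries) and 0 without controls 3 and 4. They had 1 lower with the stricter filter, which tests fewer genes, with median-of-ratios scaling, quantile normalization, FPKM scaled to a common sum, the same sum without mitochondrial genes, the replicate block, robust variance and without either pair of controls, and 1 to 3 with single libraries left out. The other immediate early genes had 1 higher with median-of-ratios scaling, 3 with quantile normalization, 3 without controls 1 and 2 and 0 to 1 with single libraries left out, and 12 to 21 lower over all alternatives. Factors at immediate early promoters had 1 lower with quantile normalization, 4 with array weights, 1 without controls 3 and 4 and 2 to 4 with single libraries left out. MAP kinase cascade genes had 1 higher with no filter, 4 with median-of-ratios scaling, 4 with quantile normalization, 0 without controls 3 and 4, 5 without controls 1 and 2 and 1 to 3 with single libraries left out. They had 6 lower with the stricter filter and 7 with quantile normalization. All genes gave 3981 lower of 12941 in the main fit, 2492 of 8050 with the stricter filter and 2847 of 12941 with quantile normalization. How many genes of each list the stricter filter kept is not given here. Inhibitors of MAP kinase signalling had 2 higher without controls 1 and 2, 7 lower with array weights and 4 to 7 lower with single libraries left out. Of all 12941 genes, 4480 were lower with array weights, 3243 without controls 3 and 4, and 3469 to 4180 with single libraries left out. The number higher was 1466 in the main fit, 2638 with median-of-ratios scaling and 2915 with quantile normalization. It was 695 without controls 3 and 4, 2838 without controls 1 and 2, and 953 to 1860 with single libraries left out. The list counts are read beside these.

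The replicate numbers shared by the groups were not taken as pairs in the main fit, which had treatment as its only term. Deviations of same-numbered libraries correlated at 0.34, 0.05, 0.09 and 0.10, all above 0. Controls 1, 3 and 4 correlated best with the treated library of their own number, and control 2 with treated library 1 (0.14). For controls 3 and 4 the next value was 0.08 each. Whether the numbers mark shared batches was not tested. With the replicate block, 1544 genes were higher and 4061 lower, against 1466 and 3981 without it. The block changed 0 calls of the 5 tested immediate early genes, with Dusp1 at an adjusted p of 0.0229 (limma). Values near or below 1 FPKM, as for the AP-1 genes, rest on few fragments, and the number is unknown.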
